A study of Mus musculus with 12 samples.

Results

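Integrins are adhesion receptors made of an alpha and a beta chain, and thymocytes use them to hold on to stromal cells, vessel walls and the extracellular matrix. The chains described here were 10 subunits chosen by name: the alpha genes Itga4, Itga5, Itga6, Itgav, Itgal and Itgae and the beta genes Itgb1, Itgb2, Itgb3 and Itgb7. Each gene was represented by its row with the highest mean signal; each had only 1 such row. All 10 were found among the 19938 genes with a row of their own. All 10 were also among the 14953 genes bright enough to be tested, which is a mean log2 signal above the 25th percentile (4.78).

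The arrays held RNA of sorted cells in 3 groups. T cell lymphoma blasts came from the thymus of TCF-1 KO mice aged 12 to 40 weeks (6 arrays). DN3 thymocytes came from TCF-1 KO mice aged 8 to 12 weeks (3 arrays) and from wild-type (WT) mice of the same age (3 arrays). All mice carried the strain label C57/BL6. The labels give neither the TCF-1 allele nor the clonality or stage of the tumours, and no sort gate. DN3 thymocytes are immature T cells without CD4 and CD8 that rearrange the T cell receptor beta gene, and TCF-1 is a transcription factor needed for early T cell development. The lymphomas were thus compared with DN3 cells of younger mice, and age and transformation cannot be told apart.

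Signals were background-corrected, normalised log2 values (RMA), on which a difference of 1 is a 2-fold change. They cannot be compared between genes, because each gene has its own probes, so no order of levels between subunits is given. The arrays had median signals of 5.3 to 5.39, and their number limits the precision. The labels name no array batch. A division into 2 batches was inferred from the split seen in the largest number of unnamed rows (34, against 27 for the next). Over these rows lymphomas 1 and 2 and the first replicate of each DN3 group had medians of 6.02 to 6.35. The other 8 arrays had medians of 8.34 to 9.04, a gap that follows from the choice of rows. Lymphomas 1, 2 and 6 and TCF-1 KO DN3 replicate 3 had a low signal of Xist, which silences an X chromosome in females (4.13 to 4.40, against 10.10 to 10.58 on the other arrays), so sex was not balanced. No check of genotype by the signal of the deleted gene was made, because that gene was not analysed here. The cell labels were set against markers. Il2ra, the interleukin 2 receptor alpha chain that marks DN3 cells, lay between 9.89 and 10.62 in lymphomas, 10.37 and 10.88 in TCF-1 KO DN3 cells and 10.71 and 10.77 in WT DN3 cells. Cd44, absent from DN3 cells, was at 4.92 to 5.18 on every array. The list of 9 measured DN3 and T-lineage markers includes Cd44. Of the 9, 0 were called by limma in TCF-1 KO relative to WT DN3 cells, against 1.99% of all genes tested. An unadjusted p under 0.05 was found for 2 (22.2%), against 16.3% of all genes. In lymphomas 3 of the 9 fell relative to WT DN3 cells (Rag1, Rag2 and Cd3g), where 5.82% of all genes tested were called. Relative to TCF-1 KO DN3 cells 2 fell (Rag1 and Ptcra) and 1 rose (Cd3e), where 6.62% were called. Cd3g lost its call without any 1 WT array (limma adjusted p of 0.0771 to 0.168) and Ptcra without any 1 TCF-1 KO array (0.0652 to 0.176). Cd3e lost it without TCF-1 KO replicate 1 or 3 (0.096 and 0.0794), and all 3 lost it in the larger batch alone (0.096 to 0.275). Rag1, a recombinase gene of DN3 cells, was 7.42 to 9.63 in lymphomas, 9.93 to 10.18 in TCF-1 KO DN3 cells and 10.30 to 10.53 in WT DN3 cells, and its partner Rag2 was 4.84 to 6.48, 6.03 to 6.37 and 6.54 to 6.82 in the same order of groups. Rag1 was called in lymphomas relative to both DN3 groups and Rag2 relative to WT DN3 cells. Neither was called in the larger batch alone (adjusted p of 0.07 and 0.152 for Rag1 and 0.203 for Rag2). Relative to WT DN3 cells, Rag2 also lost its call without any 1 WT array (0.069 to 0.0991), and Rag1 without WT replicate 3 (0.052). Relative to TCF-1 KO DN3 cells, Rag1 lost it without any 1 TCF-1 KO array (0.0544 to 0.0891).

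The DN3 groups differed in CD8 genes. Cd8a stood at 7.05, 7.03 and 6.98 in TCF-1 KO DN3 cells, against 5.71, 5.67 and 6.03 in WT DN3 cells, a difference of 1.21 (adjusted p = 0.00111, or 0.129 with 1 fit to all 12 arrays). Cd8b1 stood at 7.41, 7.34 and 7.40 in TCF-1 KO DN3 cells, against 6.20, 5.80 and 5.95 in WT DN3 cells, a difference of 1.40 (adjusted p = 0.000455). All 3 arrays labelled TCF-1 KO DN3 lay above all 3 WT arrays in both genes. Lymphomas had 5.82 to 7.70 for Cd8a and 6.77 to 8.14 for Cd8b1, and Cd8b1 rose by 1.43 relative to WT DN3 cells (adjusted p = 0.0026). Cd4 was at 4.80 to 5.26 on all arrays and was not called.

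In lymphocytes α4β1 binds VCAM-1 and fibronectin, α4β7 binds the gut vessel protein MAdCAM-1, αEβ7 binds E-cadherin of epithelial cells, and αLβ2 (LFA-1) binds ICAMs. The matrix receptors α5β1, α6β1 and αvβ3 bind fibronectin, laminins and vitronectin. An alpha chain reaches the cell surface only with a beta chain, so the level of a heterodimer depends on both genes. In thymocytes α4β1 and α6β1 are known for adhesion during migration through the cortex, and αEβ7 for contact with thymic epithelium.

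Of the 10 members, 5 had a promoter sequence in the RefSeq table of GRCm38.p6, from 250 bases before to 50 after the start used there. Those of Itga4 and Itgb1 are shown because these genes of 1 heterodimer moved in opposite directions in the lymphomas relative to TCF-1 KO DN3 cells. Both were searched on both strands for CTTTG, the core of the motif bound by TCF/LEF factors, and matches are in capitals. The Itga4 window lies on chromosome 2 (chr2:79255176-79255475, plus strand) and the Itgb1 window on chromosome 8 (chr8:128685404-128685703, plus strand).
Itga4: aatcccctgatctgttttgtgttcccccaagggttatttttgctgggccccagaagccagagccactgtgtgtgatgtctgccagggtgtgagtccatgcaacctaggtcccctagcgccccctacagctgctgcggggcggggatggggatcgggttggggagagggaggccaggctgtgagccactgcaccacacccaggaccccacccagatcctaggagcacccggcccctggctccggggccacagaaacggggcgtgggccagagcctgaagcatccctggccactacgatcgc
Itgb1: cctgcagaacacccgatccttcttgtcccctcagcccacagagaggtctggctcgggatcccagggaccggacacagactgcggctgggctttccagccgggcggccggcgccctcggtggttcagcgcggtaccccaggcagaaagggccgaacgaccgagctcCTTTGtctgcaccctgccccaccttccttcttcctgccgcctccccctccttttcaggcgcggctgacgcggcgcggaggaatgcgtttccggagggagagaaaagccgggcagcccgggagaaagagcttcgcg
The Itga4 window held 0 matches and the Itgb1 window 1. Itga5, Itgav and Itgb7 held 1 match each, and 53.9% of all 32851 promoter windows of this length held at least 1. The windows of Itgav and Itgb7 lay inside the span of the gene, not at its outer start. A match is a stretch of letters and says nothing of binding, and 0 matches covers this window only.

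**Figure D1:**
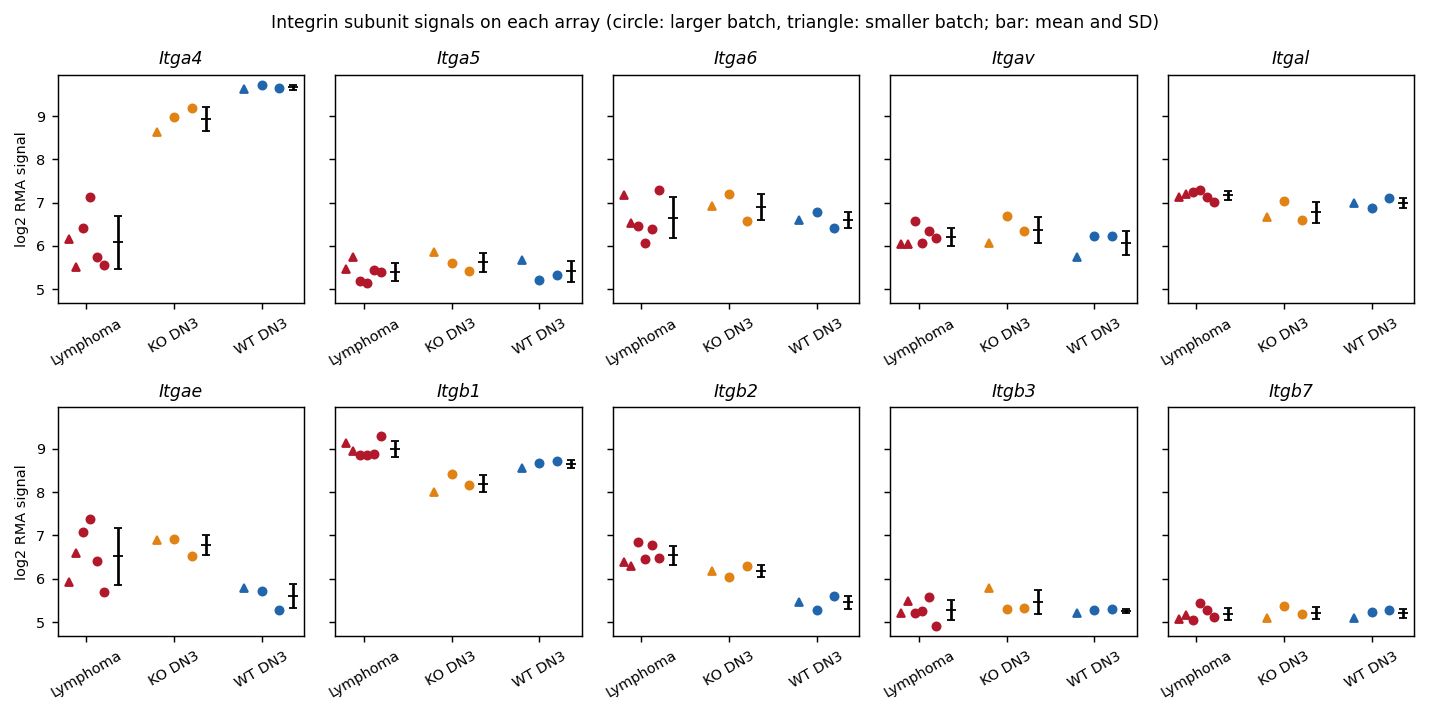
Log2 RMA signal (vertical axis) of each integrin subunit on each array of the lymphomas, TCF-1 KO DN3 cells and WT DN3 cells. Points are arrays, triangles mark the smaller array batch, and bars give mean and SD; Itga4 is at most 7.12 in the 6 lymphomas and at least 8.64 on the 6 DN3 arrays.

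The first comparison set TCF-1 KO DN3 cells against WT DN3 cells. Besides genotype, these groups differed in Xist, low in TCF-1 KO replicate 3, and in Cd8a and Cd8b1. Itgae and Itgb2 rose and Itga4 fell in TCF-1 KO DN3 cells, while the other 7 members did not pass the test. Itgae was 2.28-fold higher, Itgb2 1.65-fold higher and Itga4 1.65-fold lower than in WT DN3 cells. Over all genes tested, 1.99% were called in this comparison (85 higher and 213 lower, at a limma adjusted p under 0.05). That split was 93 higher and 146 lower with quantile normalisation repeated. The median difference was 0.21 over the members and 0.03 over all genes tested.

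Itgae encodes the alpha chain of αEβ7, the receptor for E-cadherin. It stood at 6.90, 6.93 and 6.52 in TCF-1 KO DN3 cells, against 5.79, 5.72 and 5.29 in WT DN3 cells. The groups did not overlap, and the difference was 1.19 (SE 0.16, limma adjusted p = 0.00579, n = 3 each). It was 1.11 in the smaller array batch and 1.22 in the larger. It stayed called whichever array was left out, but not with 1 fit to all 12 arrays (adjusted p = 0.0945). Cd8a and Cd8b1 rose in the same comparison, by 1.21 and 1.40 (2 of the 3 later T cell markers, with Cd4 at 0.13). The mean of the 3 was 6.50 to 6.52 per array in TCF-1 KO DN3 cells, against 5.42 to 5.72 in WT DN3 cells. Whether a share of later cells takes part in the changes of Itgae, Itgb2 and Itga4 was not tested.

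Itgb2 encodes CD18, the beta chain of LFA-1 and of the myeloid integrins. Its signal was 6.19, 6.03 and 6.30 in TCF-1 KO DN3 cells, against 5.47, 5.29 and 5.60 in WT DN3 cells. Every TCF-1 KO array lay above every WT array, with a difference of 0.72 (SE 0.13, limma adjusted p = 0.0178). Within the batches it was 0.71 and 0.72. The call was lost without WT replicate 1 (adjusted p = 0.0655), without WT replicate 2 (0.119) and without TCF-1 KO replicate 3 (0.0897), and in the larger batch alone (0.0664).

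Itgb2 is also a gene of myeloid cells. Of 10 myeloid and dendritic markers 8 were tested, 7 lay above 0 with a median difference of 0.25, and 0 were called by limma (1 of the 2 with an unadjusted p under 0.05 was Flt3, at 0.36, and the other was Fcgr3, at 0.29). The mean of all 10 was 5.05 to 5.16 per array in TCF-1 KO DN3 cells, against 4.90 to 4.98 in WT DN3 cells. The signal of Itgam, the alpha chain that joins CD18 on myeloid cells, was 4.72 to 5.14 in TCF-1 KO DN3 cells, against 4.47 to 4.92 in WT DN3 cells. Cd14 and Itgax were too dim to be tested. The part of such cells in the Itgb2 result was not tested, and in sorted bulk RNA a larger share of cells and more RNA per cell cannot be told apart.

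Itga4 encodes the alpha chain shared by α4β1 and α4β7. It had signals of 8.64, 8.99 and 9.18 in TCF-1 KO DN3 cells, against 9.62, 9.72 and 9.65 in WT DN3 cells. WT arrays lay within 0.10 of each other and above all TCF-1 KO arrays. The difference was -0.73 (SE 0.14, limma adjusted p = 0.03), and -0.98 and -0.60 within the smaller and the larger batch. The call did not hold without WT replicate 1, 2 or 3 (adjusted p of 0.0852, 0.156 and 0.0889), with quantile normalisation repeated (0.0604), in the larger batch alone (0.0897) or with 1 fit to all arrays (0.258).

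Itgb1, the common beta chain of matrix receptors and of α4β1, was not called. Its signals were 8.01, 8.42 and 8.17 in TCF-1 KO DN3 cells, against 8.55, 8.68 and 8.73 in WT DN3 cells. The groups did not overlap, but the difference of -0.45 (SE 0.13) had an adjusted p of 0.12. Same-numbered DN3 arrays deviated together, and with the replicate number as a block the adjusted p was 0.0219 for Itgb1. With the array batch as a term it was 0.0393. With the replicate block 9.23% of all genes tested were called, 1380 against 298 without it.

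The remaining members moved less. Itga6, the laminin receptor chain, differed by 0.30, Itgav, the vitronectin receptor chain, by 0.30, Itga5, the fibronectin receptor chain, by 0.21 and Itgal, the LFA-1 alpha chain, by -0.22, with adjusted p between 0.392 and 0.525. Itgb3, which pairs with the αv chain, differed by 0.21 through TCF-1 KO replicate 1, at 5.78 beside 5.30 and 5.32 on the others. Without that array it differed by 0.05. Itgb7, the partner of αE, differed by 0.01 (SE 0.12). In all, the arrays of 5 of the 10 members did not overlap between the groups, against 22.0% of all genes tested.

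**Figure D2:**
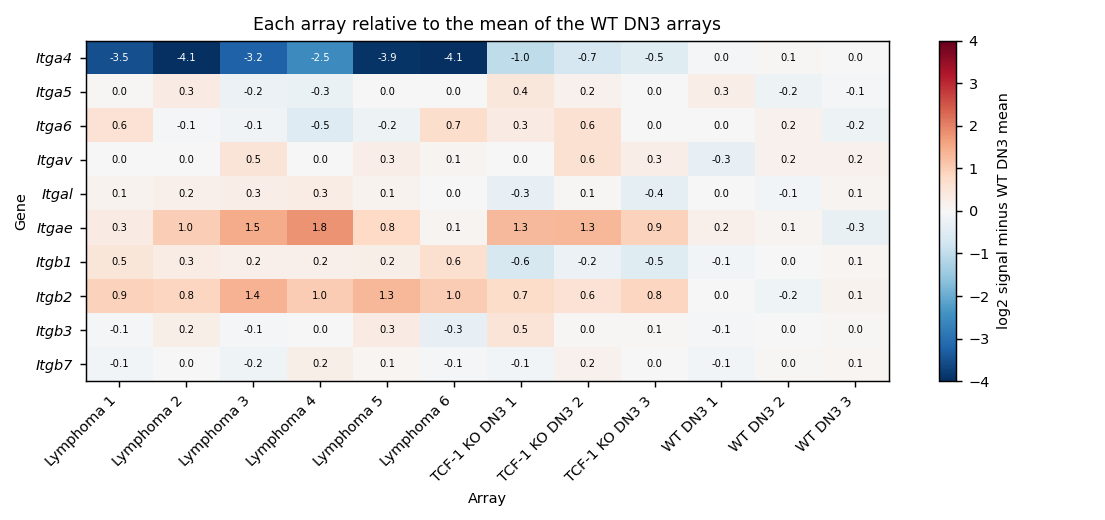
Log2 signal of each subunit on each array minus the mean of the 3 WT DN3 arrays, by colour and printed value. Itga4 is low in every lymphoma, Itgae is high in TCF-1 KO DN3 cells and unevenly so in the lymphomas, and Itgb2 is above the WT mean in all lymphomas and all TCF-1 KO DN3 arrays.

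The second comparison set the lymphomas against WT DN3 cells. Itga4 fell 11.9-fold and Itgb2 rose 2.12-fold, and the other 8 members did not pass the test. Over all genes tested 5.82% were called (443 higher and 428 lower). The members had a median difference of 0.10, against -0.01 over all genes tested.

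Itga4 in the lymphomas ranged from 5.52 through a median of 5.95 to 7.12, against 9.62, 9.72 and 9.65 in WT DN3 cells. The brightest lymphoma remained more than 2 log2 units below the dimmest WT array. The difference was -3.58 (SE 0.29, limma adjusted p = 1.55e-05, n = 6 and 3), and -3.79 and -3.47 within the smaller and the larger batch. By size of fall it ranked 5 of the 14953 genes tested. Its adjusted p was at most 0.000786 over the alternatives. The mean of the 9 DN3 and T-lineage markers, Cd44 among them, was 8.16 to 8.67 per array in the lymphomas, against 8.77 to 8.85 in WT DN3 cells. That of the 3 later T cell markers was 6.00 to 6.72, against 5.42 to 5.72. The part of cell stage in the Itga4 and Itgb2 results was not tested.

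For Itgb2, lymphomas lay between 6.30 and 6.84 with a median of 6.47, against 5.47, 5.29 and 5.60 in WT DN3 cells. All 6 lymphomas exceeded all WT arrays, by 1.09 on average (SE 0.13, adjusted p = 0.000268). The difference was 0.87 in the smaller batch and 1.20 in the larger. Here the mean of the 10 myeloid and dendritic markers spanned 4.88 to 5.06 in the lymphomas, against 4.90 to 4.98 in WT DN3 cells, and 0 of the 8 tested were called by limma or had an unadjusted p under 0.05. Itgal, which encodes the LFA-1 chain that joins CD18, differed by 0.17 (SE 0.09, adjusted p = 0.394).

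Itgae averaged 6.51 ± 0.65 in lymphomas and 5.60 ± 0.27 in WT DN3 cells (SD, n = 6 and 3). The difference of 0.91 (SE 0.32) was not called (adjusted p = 0.154), and the lowest lymphoma, at 5.70, lay within the WT range of 5.29 to 5.79. Within the smaller and the larger batch it was 0.47 and 1.14. With a term for Xist-high and Xist-low arrays, Itgae differed by 1.36 and was called (adjusted p = 0.0104). All WT arrays were Xist-high. Itgae stood at 7.07, 7.39 and 6.41 in the Xist-high lymphomas 3, 4 and 5, and at 5.93, 6.59 and 5.70 in the Xist-low lymphomas 1, 2 and 6. The part of sex was not tested further.

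Itgb1 was between 8.85 and 9.29 in lymphomas, with a median of 8.91, against 8.55, 8.68 and 8.73 in WT DN3 cells. All lymphomas lay above the WT arrays, yet the difference of 0.34 (SE 0.11) was not called (adjusted p = 0.118). Groups that do not overlap were found for 3 of the 10 members and for 10.3% of all genes tested. Itga5, Itga6, Itgav, Itgb3 and Itgb7 differed by -0.02 to 0.14, with adjusted p from 0.801 to 0.985.

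**Figure D3:**
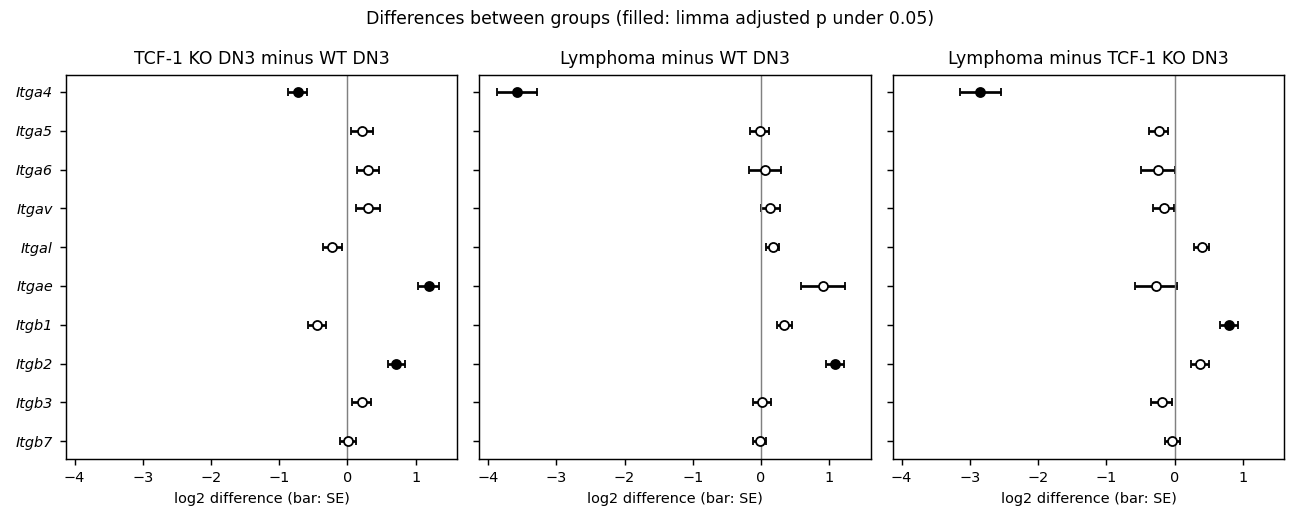
Log2 difference between group means (horizontal axis) for each subunit in the 3 comparisons, with bars of 1 SE and filled points for an adjusted p under 0.05. Itga4 is the member farthest from 0 in both comparisons of the lymphomas, at -3.58 and -2.85.

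The third comparison set the lymphomas against DN3 cells of the same genotype. Itga4 fell 7.22-fold and Itgb1 rose 1.74-fold, and the remaining 8 members did not pass the test. Of all genes tested, 6.62% were called (673 higher and 317 lower, or 966 and 206 with the arrays centred on their medians). The median difference was -0.18 over the members and -0.03 over all genes tested. The TCF-1 KO DN3 arrays serve in this and the first comparison, and the WT arrays in the first and second, so the 3 comparisons are not independent.

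Itga4 differed by -2.85 (SE 0.30, limma adjusted p = 0.000235), from lymphoma values of 5.52 to 7.12 and values of 8.64, 8.99 and 9.18 in TCF-1 KO DN3 cells. Within the batches it was -2.81 and -2.88. The groups stood apart by more than 1.5 log2 units, and the adjusted p was at most 0.00445 over the alternatives. Beside it stands the -0.73 of TCF-1 KO relative to WT DN3 cells, and the 2 values share the TCF-1 KO arrays.

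Itgb1 lay between 8.85 and 9.29 in lymphomas, against 8.01, 8.42 and 8.17 in TCF-1 KO DN3 cells. No lymphoma overlapped the TCF-1 KO DN3 arrays, and the difference was 0.80 (SE 0.13, adjusted p = 0.00338). It was 1.03 in the smaller batch and 0.68 in the larger, and in the larger batch alone it was not called (adjusted p = 0.056). Together with Itga4, this made 2 of 10 members whose groups did not overlap, against 13.6% of all genes tested.

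Itgal stood between 7.01 and 7.29 in lymphomas, with a median of 7.16, against 6.68, 7.05 and 6.60 in TCF-1 KO DN3 cells. The lowest lymphoma overlapped the highest TCF-1 KO array. Its difference of 0.40 (SE 0.11) had an adjusted p of 0.053, and passed with the arrays centred on their medians (0.0283), with the batch as a term (0.0379), with 1 fit to all arrays (0.0321), with the sex term (0.0401), with the filter at the 50th percentile (0.0485) and without TCF-1 KO replicate 2 (0.0126). Itgb2 differed by 0.37 (SE 0.13, adjusted p = 0.111) and Itgae by -0.27 (SE 0.31, adjusted p = 0.619). Itga5, Itga6, Itgav, Itgb3 and Itgb7 differed by -0.03 to -0.24, none called.

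Among the 6 lymphomas the spread differed between subunits. The SD of Itgae was 0.65 and that of Itga4 0.61, above the SDs of 99.2% and 99.0% of all genes tested in these tumours. Itga6 followed with 0.48 (97.9%), and the median gene had 0.153. Itgal was the steadiest member, with an SD of 0.10 (18.7%), and Itgb7 had 0.14 (44.7%).

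By tumour, Itga4 stood at 6.15, 5.52, 6.42, 7.12, 5.74 and 5.57 in lymphomas 1 to 6. Itgae stood at 5.93, 6.59, 7.07, 7.39, 6.41 and 5.70 in the same order. Lymphomas 3 and 4 were the highest in both genes and lymphoma 6 was among the lowest in both. Lymphomas 1 and 2 did not share an order in the 2 genes. Lymphoma 2 had the lower Itga4 (5.52, against 6.15) and the higher Itgae (6.59, against 5.93). Itga6 stood at 7.18, 6.54, 6.46, 6.07, 6.40 and 7.29. Lymphomas 1 and 6 carried the highest Itga6 and the highest Itgb1 (9.14 and 9.29), and lymphoma 4 the lowest Itga6. Lymphomas 1 and 2 belong to the smaller array batch and lymphoma 6 to the larger, so these orders also hold the batch. Lymphomas 1, 2 and 6 are the Xist-low tumours. They all lay above the Xist-high tumours in Itga6 (6.54 to 7.29, against 6.07 to 6.46) and in Itgb1 (8.95 to 9.29, against 8.85 to 8.88). The part of sex in these orders was not tested.

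**Figure D4:**
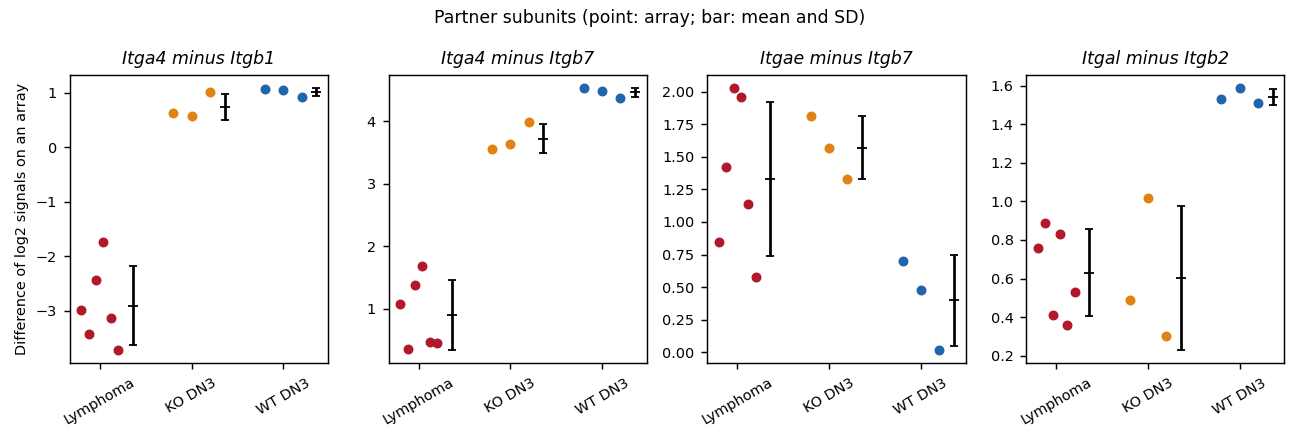
Log2 signal of an alpha gene minus that of its partner beta gene on each array, by group, each panel on its own scale, with bars for mean and SD. Itga4 minus Itgb1 is -3.72 to -1.74 in lymphomas and at least 0.57 on the DN3 arrays, and Itgal minus Itgb2 is above 1.5 only on the WT DN3 arrays.

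The chains that pair in a receptor were also set against each other on each array. The sign of a difference between chains carries no meaning on arrays, but its change between groups does. The log2 signal of Itga4 minus that of Itgb1 averaged -2.91 ± 0.72 in lymphomas, 0.74 ± 0.24 in TCF-1 KO DN3 cells and 1.01 ± 0.09 in WT DN3 cells (SD, n = 6, 3 and 3). The change between lymphomas and WT DN3 cells was thus -3.92, beside -3.58 for Itga4 itself. With Itgb7 as the partner, Itga4 averaged 0.90 ± 0.56 in lymphomas, 3.72 ± 0.23 in TCF-1 KO DN3 cells and 4.46 ± 0.08 in WT DN3 cells.

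For LFA-1, Itgal minus Itgb2 averaged 0.63 ± 0.22 in lymphomas, 0.60 ± 0.38 in TCF-1 KO DN3 cells and 1.54 ± 0.04 in WT DN3 cells. Neither the lymphomas nor the TCF-1 KO DN3 arrays, at most 1.02, reached the WT values of 1.52 to 1.59. For αEβ7, Itgae minus Itgb7 averaged 1.33 ± 0.59 in lymphomas, 1.57 ± 0.24 in TCF-1 KO DN3 cells and 0.40 ± 0.35 in WT DN3 cells. Itgav minus Itgb3 averaged 0.93, 0.90 and 0.81 in the same order of groups and changed by no more than its SD. These differences between chains carry no test.

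Genes with a profile most like that of Itga4 and of Itgb2 over the 12 arrays were sought by the mean absolute difference between centred profiles. For Itga4 they were Dgkeos (0.40), the ubiquitin ligase gene Rnf130 (0.41) and the guanylate-binding protein gene Gbp8 (0.44). In lymphomas these differed from WT DN3 cells by -3.62, -3.85 and -2.72, all called. For Itgb2 they were the semaphorin gene Sema7a, the SLAM-family receptor gene Ly9 and Epdr1, each at 0.14. Those 3 differed by 0.99, 0.87 and 0.71 in lymphomas relative to WT DN3 cells, all called. All these genes were picked for their likeness over the same 12 arrays. Differences and calls like those of Itga4 and Itgb2 thus follow from the choice and are no separate result.

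Of 16 other integrin subunits listed, 12 were tested. In TCF-1 KO DN3 cells 0 were called by limma, with 1 (8.33%) at an unadjusted p under 0.05, against 16.3% of all genes. Only Itgb4, the beta chain of the epithelial laminin receptor, was called in the lymphomas relative to WT DN3 cells, where 3 of the 12 had an unadjusted p under 0.05, against 15.5% of all genes. It stood at 5.72 to 5.90 in lymphomas, against 6.18 to 6.19 in WT DN3 cells, a difference of -0.38 (SE 0.07, adjusted p = 0.00736), and was not called in the larger batch alone (0.0889). Relative to TCF-1 KO DN3 cells 0 of the 12 were called by limma in lymphomas, with 1 (8.33%) at an unadjusted p under 0.05, against 24.7% of all genes. The median differences of these 12 were 0.14, 0.06 and -0.07 in the 3 comparisons. Itga2b, the platelet partner of Itgb3, was at 5.41 to 5.59 in lymphomas, 5.57 to 5.94 in TCF-1 KO DN3 cells and 5.59 to 5.71 in WT DN3 cells.

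Of 21 ligand genes 17 were tested. Cdh1, which encodes E-cadherin, the ligand of αEβ7, was 5.48 to 6.13 in lymphomas, with a median of 5.80. It stood at 7.75, 7.39 and 6.80 in TCF-1 KO DN3 cells and at 6.70, 6.57 and 6.54 in WT DN3 cells. Lymphomas lay below both DN3 groups. They differed by -0.80 from WT DN3 cells (SE 0.13, adjusted p = 0.00218) and by -1.50 from TCF-1 KO DN3 cells (SE 0.19, adjusted p = 0.000807). Between TCF-1 KO and WT DN3 cells Cdh1 differed by 0.71 without being called (adjusted p = 0.11). There 0 ligand genes were called by limma, with 1 at an unadjusted p under 0.05. The laminin chain gene Lamc1 fell by 0.64 in lymphomas relative to TCF-1 KO DN3 cells (adjusted p = 0.0129), and lost the call without TCF-1 KO replicate 1 (0.0686) and in the larger batch alone (0.151). The other 15 ligand genes tested in that comparison were not called. Vcam1 and Icam1, the ligands of α4β1 and LFA-1, were at 4.65 to 5.15 and 5.88 to 6.17 over all arrays.

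Genes that link integrins to the cytoskeleton or switch them on formed the largest list, with 28 of 31 tested. In lymphomas relative to WT DN3 cells 2 rose, 3 fell and 23 did not pass, where 5.82% of all genes tested were called. Ptk2b, the adhesion kinase Pyk2, stood at 7.13 to 7.67 in lymphomas, 6.28 to 6.55 in TCF-1 KO DN3 cells and 6.24 to 6.77 in WT DN3 cells. All lymphomas lay above all DN3 arrays, by 0.81 over WT (SE 0.14, adjusted p = 0.00439) and 0.90 over TCF-1 KO DN3 cells (SE 0.13, adjusted p = 0.00171).

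Lims1 encodes PINCH-1, a partner of the integrin-linked kinase. It was 6.58 to 6.78 in lymphomas, 6.96 to 7.27 in TCF-1 KO DN3 cells and 7.21 to 7.39 in WT DN3 cells. It fell by 0.62 relative to WT (adjusted p = 0.000468) and by 0.47 relative to TCF-1 KO DN3 cells (0.0122, or 0.0676 without TCF-1 KO replicate 3). The adaptor gene Skap2 fell by 0.72 in lymphomas relative to WT DN3 cells (adjusted p = 0.00199), and the actin crosslinker gene Actn1 rose by 0.51 (0.0286).

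The Actn1 call was lost without any 1 of WT replicates 1 to 3 or lymphomas 5 and 6, in the larger batch alone, with quantile normalisation repeated (0.0568) and with the sex term (0.0552), with adjusted p up to 0.14. Zyx, a focal adhesion gene named after its values were seen, fell by 0.37 (0.0289), or had an adjusted p of 0.118 without WT replicate 1. Ptk2b and Lims1 were the only called genes of the list in lymphomas relative to TCF-1 KO DN3 cells, where 6.62% of all genes tested were called. Relative to WT DN3 cells, TCF-1 KO DN3 cells had 0 calls by limma in this list, with 5 of 28 genes (17.9%) at an unadjusted p under 0.05, against 16.3% of all genes tested. In lymphomas 11 of the 28 (39.3%) had such a p relative to WT DN3 cells, against 15.5% of all genes, and 11 (39.3%) relative to TCF-1 KO DN3 cells, against 24.7%. The signals of Tln1 and Fermt3, encoding the integrin activators talin and kindlin-3, were 7.00 to 7.28 and 6.10 to 6.43 over all arrays.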

How the data were processed

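Per the labels' protocols, total RNA of sorted cells was amplified by the NuGEN PicoRNA system and read on single-colour Affymetrix Mouse Gene 1.0 ST arrays. The values used are the deposited log2 signals, which the submitters' processing notes credit to RMA and Partek without versions. Base 2 was inferred from their range. RMA brings the arrays to nearly 1 distribution, which hides shifts in whole-cell RNA, and it compresses changes of dim genes.

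The table held 35556 rows for 12 arrays; by the platform annotation 21789 rows had 1 gene symbol (21698 of them matched by gene identifier to RefSeq's GRCm38.p6 table), 1621 had several and 12146 none here. Each gene took its brightest row on average, and genes under the 25th percentile of mean signal were dropped. Limma 3.58.1 in R 4.3.3, checked on simulated data, was fitted to the 2 groups of each comparison, two-sided, with Benjamini-Hochberg adjustment over 14953 genes. Every adjusted p comes from limma. The replicates are called biological but the relation between mice is not stated, and p-values cover the spread between these samples only.

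Members and lists were chosen with earlier results of these data known. From the lists of other subunits, ligands and adhesome genes, the called genes with the lowest p were named, up to 4 per list and comparison, and for members called with a change of at least 1 in lymphomas against WT, the 3 nearest profiles. Cell type markers fall outside this rule, and those named were chosen after their values were seen. TCF-1 KO and WT DN3 arrays with the same number deviated together from their group means (r over genes of 0.51, 0.42 and 0.25) and were treated as pairs in the block; number 1 also shares the smaller batch. Lymphoma numbers were not taken as pairs, and the block in their comparisons held lymphomas 1 to 3 only. Number 2 had r of -0.22 with WT and -0.26 with TCF-1 KO, and number 3 had 0.15 and 0.11. Number 1 had 0.44 and 0.38, and shares the smaller batch. The batch was the split shown by most unnamed rows with a gap of at least 1 (34 rows, against 27 for the next split). Alternatives covered scaling, filter, averaged rows, variance model, 1 fit to all arrays, replicate block, batch, each array left out and, added after seeing the data, a sex term from Xist.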

Additional observations from a re-analysis of the deposited data

Results flagged for a closer look

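For 34 genes (the members, their nearest profiles and the called genes of the lists and cell type markers with the lowest p), the gap between the outermost lymphoma and its neighbour was set against the range of the 6 tumours; chance flags about 1 in 20 groups. Of these, 1 gene passed Dixon's critical value and no integrin subunit did. Epcam, an epithelial adhesion gene in the stroma marker list, stood at 4.59 in lymphoma 6 and at 4.84 to 4.96 in the others, a gap of 0.66 of the range. Epcam was lower in lymphomas than in both DN3 groups, by -1.05 relative to WT and by -1.06 relative to TCF-1 KO DN3 cells.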

How the results depend on the processing

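Of the 7 calls of members, the falls of Itga4 in lymphomas relative to both DN3 groups and the rise of Itgb2 relative to WT DN3 cells held under every alternative run, and the rise of Itgae in TCF-1 KO DN3 cells under all but 1 fit to all arrays. No called value changed sign. In TCF-1 KO against WT DN3 cells, 3 members were called, against 1 with 1 fit to all arrays and 1 in the larger batch alone, and 1 to 3 with an array left out. In lymphomas against TCF-1 KO DN3 cells, 2 were called, against 1 in the larger batch alone, which holds fewer arrays, and 2 to 3 with an array left out. In lymphomas against WT DN3 cells it was 2 with any array left out. Over all genes, the 298 calls in TCF-1 KO against WT DN3 cells became 1380 with the replicate block, 754 with a batch term, 144 in the larger batch alone and 126 with the sex term, which here is the same as leaving out TCF-1 KO replicate 3. With an array left out they ran from 57 (without WT replicate 2) to 443 (without TCF-1 KO replicate 2), and were 122 and 154 without WT replicates 1 and 3. The 871 calls in lymphomas against WT became 549 in the larger batch alone, and 560 to 872 with an array left out. The 990 in lymphomas against TCF-1 KO DN3 cells became 1702 with a batch term and 325 in the larger batch alone, and 431 to 1361 with an array left out (457 and 431 without TCF-1 KO replicates 1 and 3). Beyond the changes stated here and in the report, the replicate block changed no other call of a member. In the comparisons of lymphomas the block was fitted with lymphomas 1 to 3 only, whose numbers were not taken as pairs. It called 863 and 999 genes there, and the block and the smaller number of tumours cannot be told apart. There it ended the calls of Itgb4 and Actn1 relative to WT DN3 cells (limma adjusted p of 0.0962 and 0.111). Relative to TCF-1 KO DN3 cells it ended those of Lamc1 and Lims1 (0.0731 and 0.0799). Uncalled differences near 0 changed sign. Between TCF-1 KO and WT DN3 cells Itgb7 was -0.05 with arrays centred on their medians and -0.06 with quantile normalisation repeated, and -0.06 to 0.08 with an array left out. In lymphomas against WT, Itga5 was 0.05 with the replicate block (lymphomas 1 to 3 only), 0.01 in the larger batch and -0.11 to 0.12 with an array left out. There Itga6 and Itgb3 were both -0.04 in the larger batch, Itga6 was -0.29 and Itgb7 0.04 with the sex term, and leaving out an array gave -0.07 to 0.18 for Itga6, -0.02 to 0.22 for Itgav, -0.05 to 0.09 for Itgb3 and -0.07 to 0.02 for Itgb7. In lymphomas against TCF-1 KO DN3 cells Itgb7 was 0.04 with centred arrays, 0.05 with quantile normalisation repeated and -0.09 to 0.04 with an array left out. The cause was not tested. The filter at the 50th percentile left out Itgb3 and Itgb7, so these have no value there; both are dim, and small changes in them may not be measurable.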
